A study of Arabidopsis thaliana with 15 samples.

Results

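The 59 genes described here rose early and stayed high in infected leaves of wild-type Arabidopsis thaliana (Col-0), and had changed little by 10 h in leaves of the rps2 mutant. They were chosen from measured values, out of 13513 probe sets paired with a single gene. The rule asked for a Col-0 difference of at least 2 on the log2 scale between 6 h and 0 h and of at least 2.5 between 10 h and 0 h. It also asked for a 10 h minus 6 h difference above -1 in Col-0 and an rps2 difference between 10 h and 0 h of less than 0.5 in size. In all 500 single-gene probe sets passed the Col-0 conditions. The rps2 difference was at least 2 in 195 of them and from 0.5 to 2 in 239, it was within 0.5 in the 59 members, and it was -0.5 or lower in 7. Another 64 probe sets without a single gene name met all the conditions and are not described.

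Transcripts were measured by array in mature leaves of soil-grown plants at an age of 4 weeks, after infiltration with Psm:AvrRpt2 (the bacterium Pseudomonas syringae pv. maculicola with the effector AvrRpt2) at an optical density of 0.01 in 10 mM MgSO4. The 5 groups, all infiltrated and each of 3 biological replicates, were wild-type Col-0 leaves taken at 0, 6 or 10 h and rps2 leaves taken at 0 or 10 h. The labels name neither a mock infiltration nor the rps2 allele, so each comparison of times carries the time of day as well as the infection. The mutant was not sampled at 6 h, so "induced only with RPS2" is known of these genes for 10 h alone.

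AvrRpt2 is a protease that the bacterium injects into plant cells, where it cleaves the host protein RIN4. RPS2, a nucleotide-binding leucine-rich repeat receptor, responds to the loss of RIN4 and starts effector-triggered immunity. Leaves without RPS2 still perceive bacterial patterns through receptors at the cell surface, and many defence genes respond to both routes.

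Each value is a log2 difference from the median of that probe set over the 15 arrays, so a difference of 1 is a 2-fold difference and no value gives an absolute level. Errors after ± are standard errors of the limma fit unless SD is written. The rps2 10 h array of replicate 3 resembled the rps2 0 h arrays: over all probe sets it differed from them by an SD of 0.170 to 0.200, and from rps2 10 h replicates 1 and 2 by 0.949 and 0.942. The rule and the fit leave it out, so rps2 at 10 h rests on 2 arrays. The poly-A spike-ins, transcripts added before labelling, averaged 0.981 ± 0.126 (SD, n = 3) in Col-0 at 10 h, and the other 12 arrays ranged from -0.493 to 0.115. Centring on them lowers each Col-0 10 h difference from 0 h by 1.08, after which 33 of the 59 genes remained at 2.5 or more and all 59 stayed above 0, from 1.45 to 6.05. In bulk leaf, fewer cells of a type and less RNA per cell cannot be told apart. Of 16 cell type markers listed, 3 had a named probe set, and their levels cannot be judged from centred values. The Col-0 10 h differences were -3.11 ± 0.075 for the mesophyll gene RCA, -0.60 ± 0.089 for the guard cell gene FMA and -1.22 ± 0.11 for the phloem gene SWEET11, and the part of such shifts in the members' values was not tested.

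The members stood high in Col-0 at 6 and 10 h and low in the other groups. The median over the 59 genes was -0.39, -0.47 and -0.44 on the Col-0 0 h arrays, 2.30, 2.18 and 2.01 at 6 h, and 2.94, 3.02 and 3.10 at 10 h. It was -0.24, -0.20 and -0.21 on the rps2 0 h arrays and -0.04 and 0.00 on the rps2 10 h arrays. For all 59 genes each of the 5 rps2 arrays in the fit lay below each of the 6 Col-0 arrays at 6 and 10 h, a separation that the rule favours and that held for 17.6% of all probe sets. By the limma test across 22746 probe sets, all 59 were higher in Col-0 at 6 h (27.7% of all probe sets) and at 10 h (31.1%), and the rule required differences of this size. At 10 h all 59 were lower in rps2 than in Col-0 (29.6% of all) and 0 higher (27.8%), which the rule favours. On the poly-A scale this did not hold for AT3G15770, as given below. Between 0 h and 10 h in rps2, 14 members passed the threshold upward (21.2% of all) and 1 downward (26.9%), all with differences under 0.5.

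**Figure D1:**
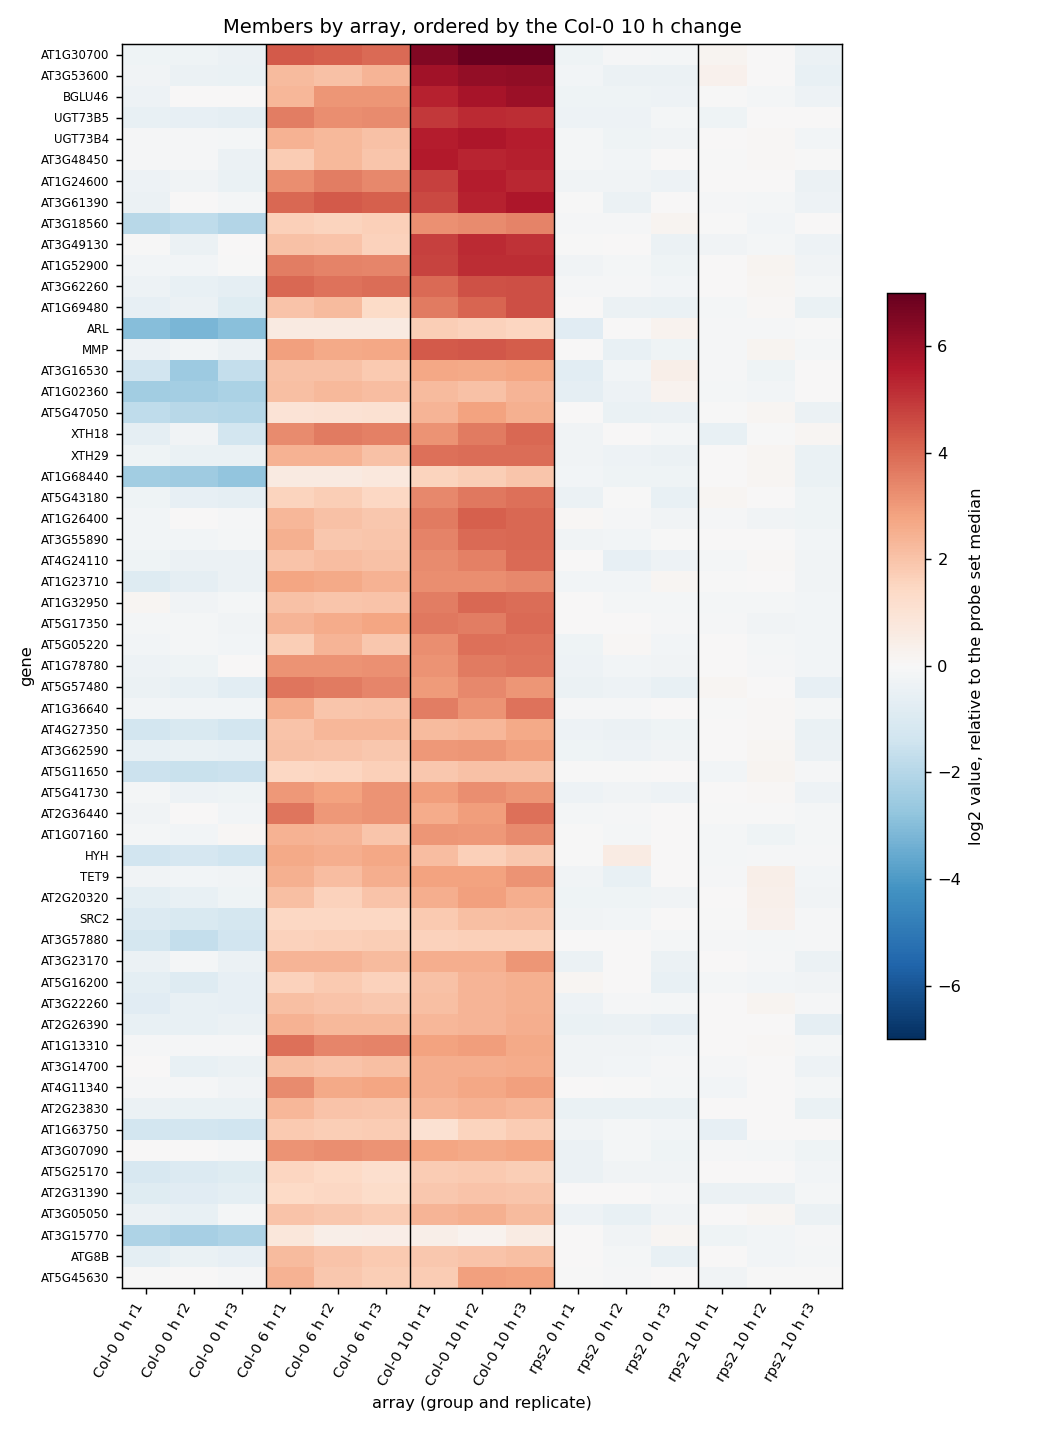
Values of the 59 genes (rows, ordered by the Col-0 10 h difference) on the 15 arrays (columns, by group and replicate), as log2 relative to each probe set's median. The Col-0 6 h and 10 h columns stand above all rps2 columns, and some scattered rows, ARL and AT1G68440 among them, are low on the Col-0 0 h arrays alone.

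**Figure D2:**
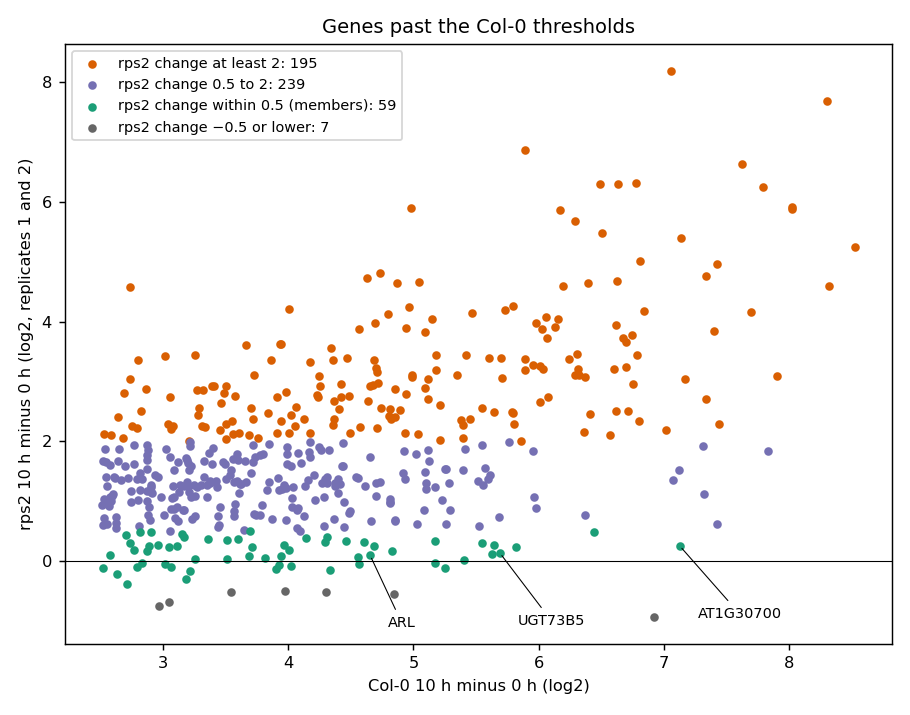
The 500 genes that passed the Col-0 conditions, with the Col-0 10 h minus 0 h difference (log2, x axis) against the same difference in rps2 (log2, replicates 1 and 2, y axis). The 59 members form the band within 0.5 of 0, and lines point to AT1G30700, UGT73B5 and ARL.

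The size of the Col-0 difference varied widely among the members. At 6 h it ran from 2.03 to 4.52 with a median of 2.77, and at 10 h from 2.53 to 7.12 with a median of 3.71. The rps2 differences at 10 h ran from -0.37 to 0.50 with a median of 0.18, and 43 were above 0. Over all 22746 probe sets the median rps2 difference was -0.07 and 8878 were above 0. The spread between replicates was small beside the members' Col-0 differences: the median SD of the members was 0.123 at 0 h, 0.162 at 6 h and 0.183 at 10 h in Col-0, and 0.109 in rps2 at 0 h. The widest was that of AT2G36440 in Col-0 at 10 h, with an SD of 0.647.

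Of the 59 genes, 11 carry a gene symbol and the other 48 are known here by locus code alone. The largest difference belonged to one of the latter, AT1G30700. It stood at -0.31, -0.30 and -0.43 in Col-0 at 0 h, at 4.28, 4.20 and 3.96 at 6 h and at 6.51, 6.90 and 6.92 at 10 h. In rps2 it stood at -0.29, -0.07 and -0.11 at 0 h and at 0.20 and 0.00 at 10 h. Thus the gene climbed in 2 steps in Col-0, with no overlap between times, while the rps2 arrays of both times lay near the Col-0 0 h arrays. The 10 h difference was 7.12 ± 0.12 in Col-0 and 0.26 ± 0.13 in rps2. AT3G53600 came next, at 6.44 ± 0.12 in Col-0 and 0.49 in rps2, just inside the limit of 0.5.

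Of the 5 members with the largest 10 h differences 3 carry a symbol: BGLU46, UGT73B5 and UGT73B4. UGT73B5 and UGT73B4 encode UDP-glucosyltransferases, which attach glucose to small molecules. UGT73B5 stood at -0.53, -0.59 and -0.61 in Col-0 at 0 h, at 3.56, 3.23 and 3.32 at 6 h and at 4.94, 5.23 and 5.16 at 10 h. The rps2 arrays gave -0.36, -0.36 and -0.14 at 0 h and -0.29 and 0.00 at 10 h. The Col-0 groups did not overlap, and the rps2 10 h arrays fell among or close to the rps2 0 h arrays. UGT73B4 stood at -0.06, -0.09 and -0.11 in Col-0 at 0 h, at 2.45, 2.29 and 2.07 at 6 h and at 5.51, 5.66 and 5.51 at 10 h. Its rps2 values were -0.13, -0.30 and -0.25 at 0 h and 0.00 and 0.10 at 10 h. The 2 genes reached like 10 h differences, 5.69 ± 0.11 and 5.65 ± 0.092, but by 6 h UGT73B5 had risen by 3.95 and UGT73B4 by 2.36. In the RefSeq annotation the span of UGT73B5 covers all of UGT73B4, so their signals may share transcripts, which was not tested. In all, the spans of 18 members overlap that of another gene, in 16 of them a protein-coding one. Shared signal was not tested for these either.

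The third measured gene of that subfamily, UGT73B1, did not share the pattern: its 10 h difference in Col-0 was -0.70 ± 0.11, a fall by limma's test across all probe sets (adjusted p = 3.41e-05). Among all 47 measured UGT genes, the 2 members included, 23 rose, 14 fell and 10 did not pass the threshold in Col-0 at 10 h, with a median of 0.32. Of all probe sets 31.1% rose and 33.1% fell in this contrast, the background also for the family counts below. On the poly-A scale 12 of the 23 stayed above 0.

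BGLU46 encodes a beta-glucosidase that acts on glucosides of lignin precursors. It stood at -0.37, 0.05 and 0.00 in Col-0 at 0 h, at 2.32, 3.08 and 3.07 at 6 h and at 5.38, 5.75 and 6.00 at 10 h. Its values in rps2 were -0.28, -0.30 and -0.36 at 0 h and -0.05 and -0.12 at 10 h. All Col-0 6 h and 10 h arrays were far above the rest, and the 10 h difference was 5.82 ± 0.19 in Col-0 against 0.23 ± 0.21 in rps2. Its neighbour BGLU45, with the same substrates, rose by 7.42 ± 0.12 in Col-0 and by 0.61 ± 0.13 in rps2 (limma adjusted p = 9.94e-04), which placed it just outside the set. Of 20 measured BGLU genes 10 rose, 4 fell and 6 did not pass in Col-0 at 10 h, and 6 of the 10 stayed above 0 on the poly-A scale.

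Cell wall enzymes were represented by XTH18 and XTH29, members of the family that cuts and rejoins xyloglucan chains. XTH18 stood at -0.63, -0.25 and -1.28 in Col-0 at 0 h, at 3.31, 3.63 and 3.54 at 6 h and at 3.15, 3.66 and 4.04 at 10 h. In rps2 it stood at -0.27, 0.00 and -0.14 at 0 h and at -0.54 and -0.02 at 10 h. The 6 h and 10 h arrays of XTH18 overlapped, with a difference of 0.12 that became -0.99 on the poly-A scale, whereas the 10 h arrays of XTH29 all lay above its 6 h arrays. XTH29 stood at 2.45, 2.45 and 2.02 at 6 h and at 3.87, 3.94 and 3.89 at 10 h, and its 10 h difference from 0 h was 4.31 ± 0.11 in Col-0 and 0.40 ± 0.12 in rps2. Of the 9 measured XTH genes the remaining riser was XTH19, at 1.49 ± 0.26 in Col-0 and -1.51 ± 0.29 in rps2, while XTH32 fell by 4.20 ± 0.15 and 5 did not pass. At 0 h XTH19 was 1.61 ± 0.26 higher in rps2 than in Col-0, so its fall in rps2 began from a higher value.

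Protein turnover was represented by MMP, a matrix metalloproteinase gene, and ATG8B, whose product coats the membranes of autophagosomes. MMP stood at -0.33, -0.20 and -0.43 in Col-0 at 0 h, at 2.85, 2.64 and 2.68 at 6 h and at 4.27, 4.33 and 4.24 at 10 h. In the mutant MMP was at 0.00, -0.50 and -0.31 at 0 h and at -0.10 and 0.21 at 10 h, below every Col-0 6 h and 10 h array. ATG8B had one of the smallest differences, 2.58 at 6 h and 2.57 ± 0.13 at 10 h, and its 6 h arrays (2.21, 1.99 and 1.81) and 10 h arrays (1.88, 2.02 and 2.10) overlapped. Its rps2 difference was 0.11 ± 0.15. ATG8E, at 1.65 in Col-0 and -0.24 in rps2, and APG8A, at 1.76 and 0.48, were likewise within 0.5 in rps2 but short of the Col-0 limits. ATG8H rose by 3.83 in Col-0 and 1.19 in rps2, ATG8D by 0.58 and 2.13, and ATG8F fell by 1.16 in Col-0. At 0 h ATG8D differed between rps2 and Col-0 by -1.95 ± 0.13, so its rise in rps2 began from a lower value. In Col-0 at 10 h 5 of the 9 measured ATG8 genes rose, 2 fell and 2 did not pass, and of the 5 ATG8D alone turned below 0 on the poly-A scale.

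Among genes of membranes and signalling, TET9 encodes a tetraspanin, a membrane-spanning organiser protein. It stood at 2.51, 2.18 and 2.55 in Col-0 at 6 h and at 2.83, 2.83 and 3.15 at 10 h, against -0.25, -0.19 and -0.25 at 0 h. Of the 15 measured tetraspanin genes only TET9 and TET8 rose in Col-0 at 10 h by limma, 6 fell and 7 did not pass. TET8 rose by 3.72 ± 0.095 in Col-0 and by 1.65 ± 0.11 in rps2, where TET9 was at 0.40 ± 0.17. SRC2, named after a soybean gene regulated by cold, differed by 3.11 ± 0.11 in Col-0 at 10 h and by 0.25 ± 0.12 in rps2.

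The growth gene ARL (ARGOS-like), which promotes cell expansion, and HYH, a transcription factor of light signalling related to HY5, had a further feature in common: low Col-0 0 h arrays. ARL stood at -3.01, -3.19 and -2.93 in Col-0 at 0 h, at 0.63, 0.65 and 0.61 at 6 h and at 1.71, 1.60 and 1.53 at 10 h. The rps2 arrays gave -0.79, 0.00 and 0.23 at 0 h and -0.09 and -0.08 at 10 h. So every rps2 array lay between the Col-0 0 h and the Col-0 6 h arrays. HYH stood at -1.32, -1.15 and -1.40 in Col-0 at 0 h, at 2.66, 2.56 and 2.72 at 6 h and at 2.14, 1.66 and 1.88 at 10 h. Its rps2 values were -0.02, 0.59 and 0.00 at 0 h and -0.12 and -0.09 at 10 h. It peaked at 6 h, and the rps2 arrays again lay between the Col-0 groups.

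**Figure D3:**
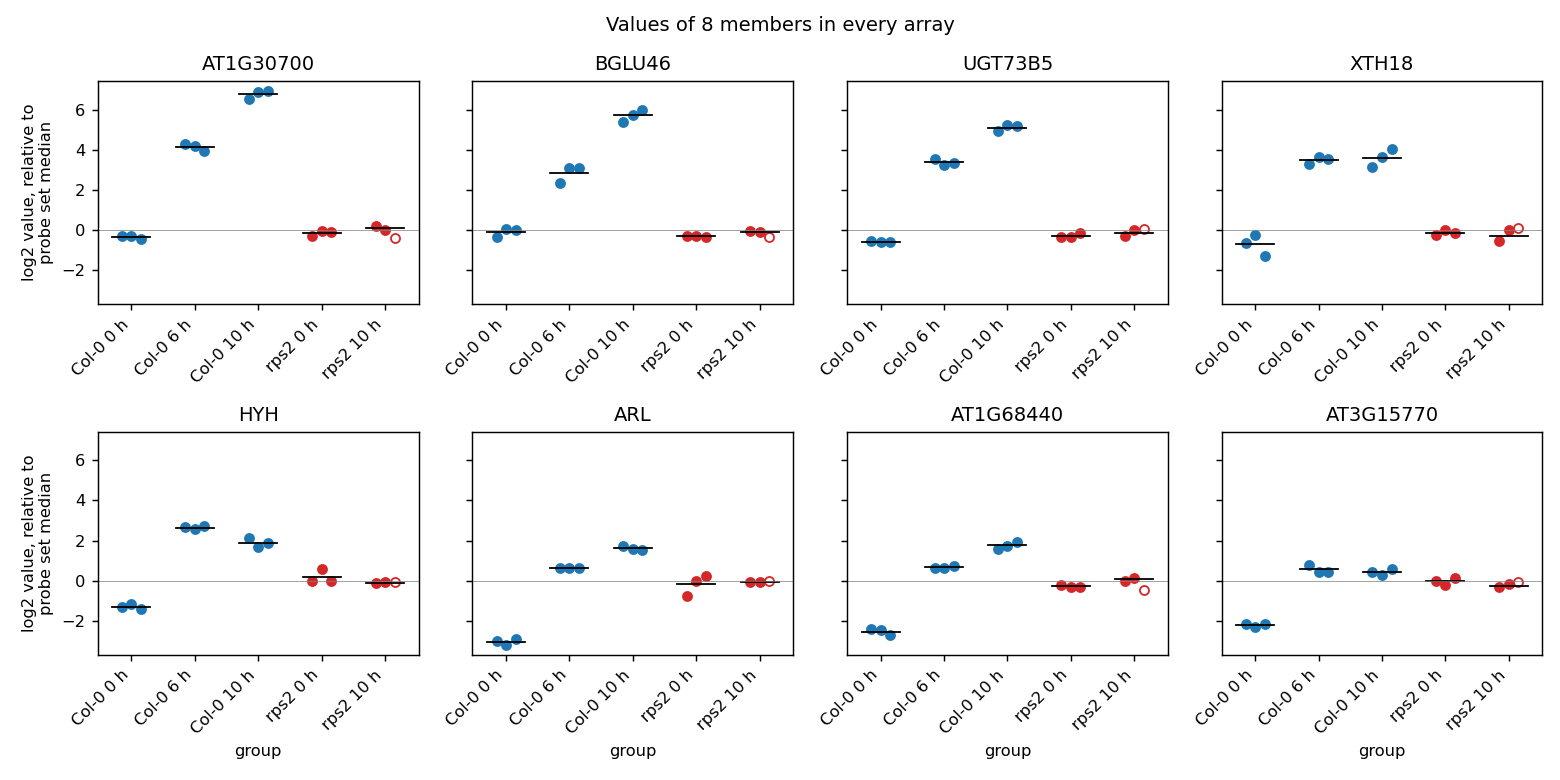
Values of 8 members on every array (log2 relative to the probe set median, y axis) by group (x axis), Col-0 in blue and rps2 in red. Lines are group means, and the open symbol is rps2 10 h replicate 3, which is left out of its mean. In AT1G30700, BGLU46 and UGT73B5 the rps2 arrays lie near the Col-0 0 h arrays, whereas in HYH, ARL, AT1G68440 and AT3G15770 they lie above them.

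Between 6 h and 10 h the members went different ways within the limits of the rule. In Col-0 25 rose further by at least 1, 24 by less than 1 and 10 were lower at 10 h, with a median of 0.68. The largest further differences were 3.88 in AT3G53600, 3.45 in AT3G48450, 3.29 in UGT73B4, 3.15 in AT3G49130 and 2.89 in BGLU46. AT3G48450, for one, stood at 1.76, 2.29 and 1.92 at 6 h and at 5.53, 5.35 and 5.43 at 10 h. At the other end AT1G13310 and HYH were lower at 10 h by -0.78 and -0.75, and AT1G02360 differed by 0.03. By limma 42 members were higher at 10 h than at 6 h (18.4% of all probe sets) and 4 lower (24.8%), a contrast that the rule used. The poly-A scale lowers this contrast by 1.11, and then 22 members stayed above 0 and 7 at 1 or more.

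The comparison of the genotypes at 0 h was not part of the rule, although it draws on the same 0 h arrays. A low Col-0 0 h value helps a gene past the Col-0 conditions, and a high rps2 0 h value lowers the rps2 difference. Both raise rps2 against Col-0 at 0 h, and how far the choice of genes shaped the shares below was not tested. Of the 59 genes 20 were higher in rps2 at 0 h, 1 was lower and 38 did not pass limma's threshold (adjusted p under 0.05 over 22746 probe sets, two-sided). The share higher was 33.9%, against 16.3% of all probe sets, and the share lower was 1.69%, against 13.9%. The median difference over the members was 0.12, against 0.0031 over all probe sets. The poly-A scale lowers this contrast by 0.16 for every probe set alike, and the members' median was then -0.04. A difference of at least 1 was found in 11 members (18.6%), against 2.58% of all probe sets.

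ARL differed most at 0 h, by 2.85 ± 0.18 (limma adjusted p = 1.23e-08, n = 3 per group). AT1G68440 followed at 2.27 ± 0.099 (adjusted p = 2.47e-10), with -2.42, -2.46 and -2.74 in Col-0 and -0.22, -0.30 and -0.30 in rps2. AT3G15770 differed by 2.18 ± 0.12 (adjusted p = 2.59e-09), with -2.17, -2.33 and -2.15 in Col-0 and 0.00, -0.24 and 0.14 in rps2. In these 3 genes the lowest rps2 array stood well over a unit above the highest Col-0 array. AT1G02360 differed by 2.10 ± 0.17 (adjusted p = 1.92e-07) and AT3G18560 by 1.94 ± 0.10 (adjusted p = 1.85e-09). AT3G16530 had the widest replicates of the members at 0 h, -1.35, -2.52 and -1.67 in Col-0 and -0.71, -0.21 and 0.43 in rps2, and its difference was 1.68 ± 0.26 (adjusted p = 1.53e-04).

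HYH differed by 1.48 ± 0.15 (adjusted p = 1.79e-06) and SRC2 by 0.93 ± 0.11 (adjusted p = 9.95e-06), with SRC2 at -0.96, -1.04 and -1.21 in Col-0 and at -0.24, -0.17 and 0.00 in rps2. AT5G47050, AT5G11650, AT3G57880 and AT1G63750 made up the rest of the 11, at 1.62, 1.49, 1.38 and 1.12. The single gene lower in rps2 was AT3G07090, by -0.26 ± 0.080 (adjusted p = 0.0233). Its call, like those of ATG8B at 0.36 ± 0.13 (adjusted p = 0.046) and AT3G62260 at 0.39 ± 0.13 (adjusted p = 0.0307), was lost with all 15 arrays in the fit (adjusted p = 0.0667, 0.0941 and 0.078). With 15 arrays 18 members were higher and none was lower, against 8.24% and 7.69% of all probe sets. As rps2 10 h replicate 3 resembled the 0 h arrays, including it widens the fitted spread of genes that changed in rps2. The rule keeps the members' rps2 differences under 0.5, so it favours their calls in this fit over those of other genes.

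**Figure D4:**
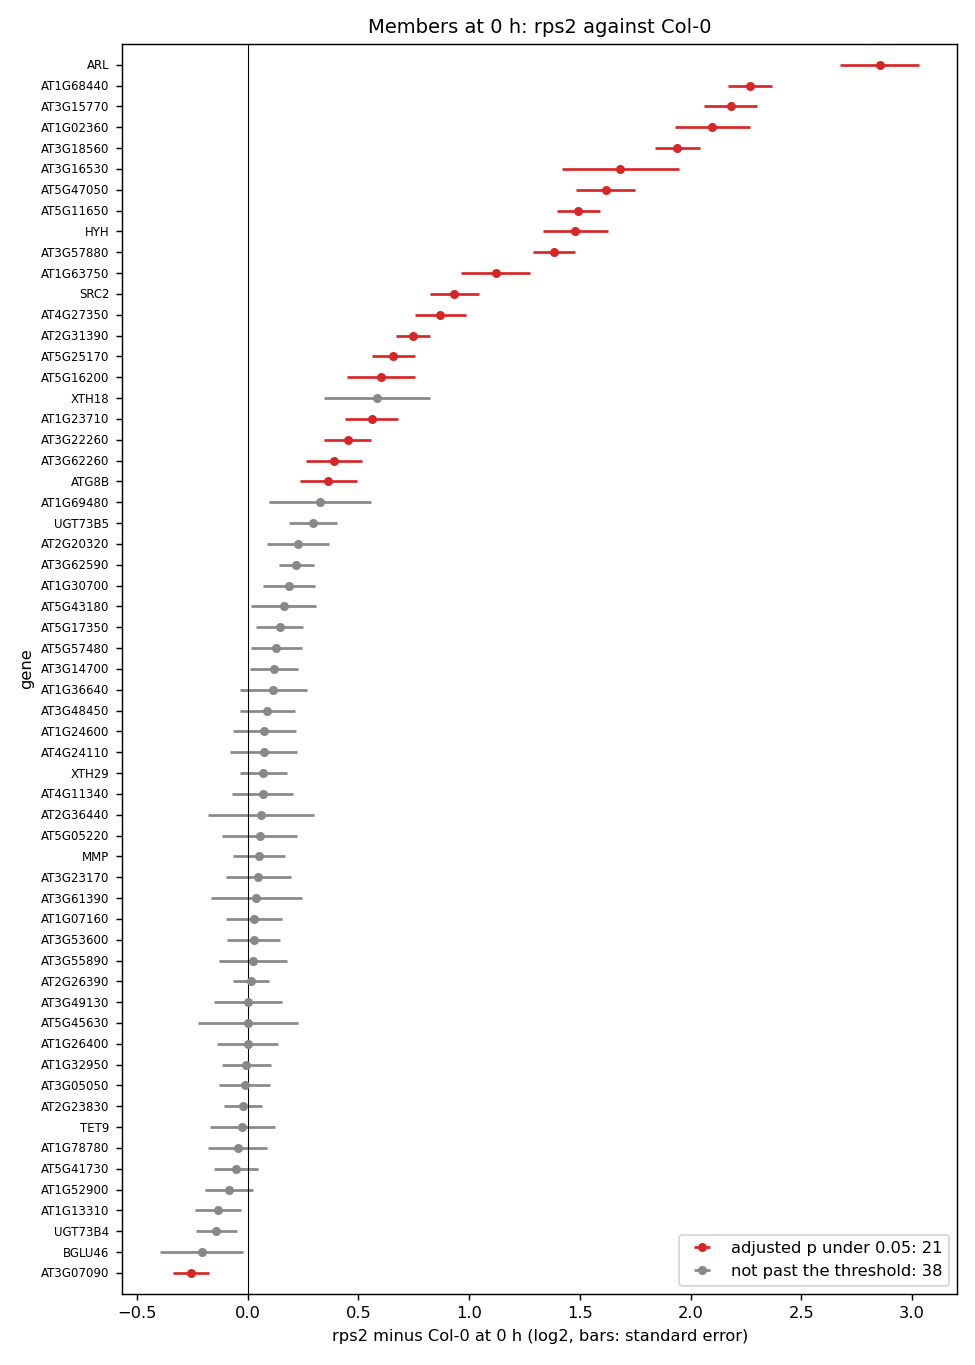
Difference between rps2 and Col-0 at 0 h (log2, x axis, bars: standard error, 3 arrays per group) for each of the 59 genes (y axis). The 21 genes past the threshold are red, 20 of them to the right of 0 with ARL at 2.85 as the farthest, and the 38 others are grey.

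The other genes past the Col-0 conditions, split by their rps2 difference, were also more often higher than lower at 0 h in rps2. Among the 195 with an rps2 difference of at least 2, 28.7% were higher and 12.3% lower, with a median of 0.14. Among the 239 between 0.5 and 2, 41.4% were higher and 6.69% lower, with a median of 0.21. With all 15 arrays in the fit these shares were 3.08% higher and 1.03% lower in the 195, 17.2% and 0% in the 239, and 30.5% and 0% in the members, so the order of the sets depended on whether rps2 10 h replicate 3 was in the fit. With 14 arrays the share higher by at least 1 was 8.21% and 10.0% in these sets and 18.6% in the members, and 6 of the 7 genes with an rps2 difference of -0.5 or lower were higher by at least 1. These shares describe sets that were themselves chosen with the 0 h arrays, and the differences between them were not tested.

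All 20 genes called higher in rps2 at 0 h had an rps2 10 h mean above the Col-0 0 h mean, by 0.37 to 2.96. The rule favours this, as it holds the rps2 difference under 0.5, and the next values describe it without a test. In AT3G15770 the rps2 10 h mean was -0.67 ± 0.13 from the Col-0 10 h mean, the smallest gap of the set, and in ARL and AT1G68440 it was -1.70 in both. Centring on the poly-A spike-ins raises rps2 against Col-0 at 10 h. On that scale AT3G15770 was 2.02 higher in rps2 at 0 h, and by 10 h it had risen by 0.10 in rps2 and 1.56 in Col-0. Its rps2 10 h mean then lay above its Col-0 10 h mean. On the deposited scale the rps2 10 h mean was within 0.5 of the Col-0 0 h mean in 35 members (59.3%), against 67.7% of all probe sets. It was at least 1 above the Col-0 0 h mean in 13 of the 59 members, and in 1878 of all 22746 probe sets.

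The array left out, rps2 10 h replicate 3, can be set against the rps2 0 h mean. It differed by -0.25 to 0.31 over the members, within 0.5 for all 59, as it was for 99.6% of all probe sets. AT1G30700 stood at -0.39 on this array, ARL at -0.0025 and AT1G68440 at -0.47. In the 195 genes with an rps2 difference of at least 2 it was within 0.5 of the rps2 0 h mean for 94.9%, so it gives no separate measure of the members at 10 h. With it averaged in, 95 genes instead of 59 met the rule.

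Several members lie beside other genes induced in Col-0. In the order of the RefSeq annotation (TAIR10.1), 45 members had at least 1 measured neighbour and 58 neighbouring positions were measured, of which 7 (12.1%) held a gene past the Col-0 conditions, against 3.70% of all single-gene probe sets. By limma 23 of the 58 rose in Col-0 at 10 h (31.1% of all probe sets), 16 fell (33.1%) and 19 did not pass. On the poly-A scale 15 of the 23 stayed above 0. UGT73B5 and UGT73B4 were the only members next to each other. They fill 2 of the 7 positions, each as the neighbour of the other, and the rule itself required both to pass. The 12.1% is therefore raised by the choice of genes. The 59 genes were spread over all 5 chromosomes, with 17, 8, 17, 7 and 10 on chromosomes 1 to 5.

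Apart from the UGT73B pair, the neighbours past the Col-0 conditions lie beside 3 members, AT1G32950, AT1G26400 and BGLU46, and these neighbours rose in rps2 as well. Neighbours short of those conditions went different ways in rps2. The largest Col-0 10 h difference among them was 3.29 in AtS40-3 beside XTH29, with 0.46 in rps2. AT4G11350 beside AT4G11340 had 3.18 and 0.81, and ATERDJ3B beside AT3G62590 had 2.41 and 2.40. XTH19 beside XTH18 had 1.49 and -1.51, and AT2G26380 beside AT2G26390 had 1.22 and -0.07. AT1G32950 lies between 2 subtilase genes, which encode secreted serine proteases, SBT3.5 and SBT3.3. It stood at 0.14, -0.23 and -0.13 in Col-0 at 0 h, at 2.04, 1.94 and 1.99 at 6 h, at 3.59, 4.04 and 3.91 at 10 h, and in rps2 at 0.00, -0.13 and -0.11 at 0 h and at -0.14 on both 10 h arrays. The rps2 10 h arrays thus lay slightly below all rps2 0 h arrays. Its rps2 difference was -0.06 ± 0.12, while SBT3.5 rose there by 1.86 ± 0.13 (limma adjusted p = 8.08e-09) and SBT3.3 by 3.38 ± 0.14 (adjusted p = 2.40e-11). All 3 were higher in Col-0 at 10 h, by 3.92, 5.12 and 6.24.

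AT1G26400 lies between AT1G26390 and AT1G26410. It stood at -0.19, 0.00 and -0.07 in Col-0 at 0 h, at 2.32, 2.06 and 1.89 at 6 h and at 3.63, 4.18 and 4.00 at 10 h. In rps2 it stood at 0.07, -0.10 and -0.24 at 0 h and at -0.10 and -0.23 at 10 h, so that the 2 times overlapped. Its rps2 difference was -0.08 ± 0.15, against 1.11 ± 0.11 in AT1G26390 and 2.37 ± 0.20 in AT1G26410, with Col-0 10 h differences of 4.02, 7.32 and 4.37. The values of BGLU46 and its neighbour BGLU45 are given above. Similar sequence between neighbours could let probe sets share signal, and this was not tested.

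**Figure D5:**
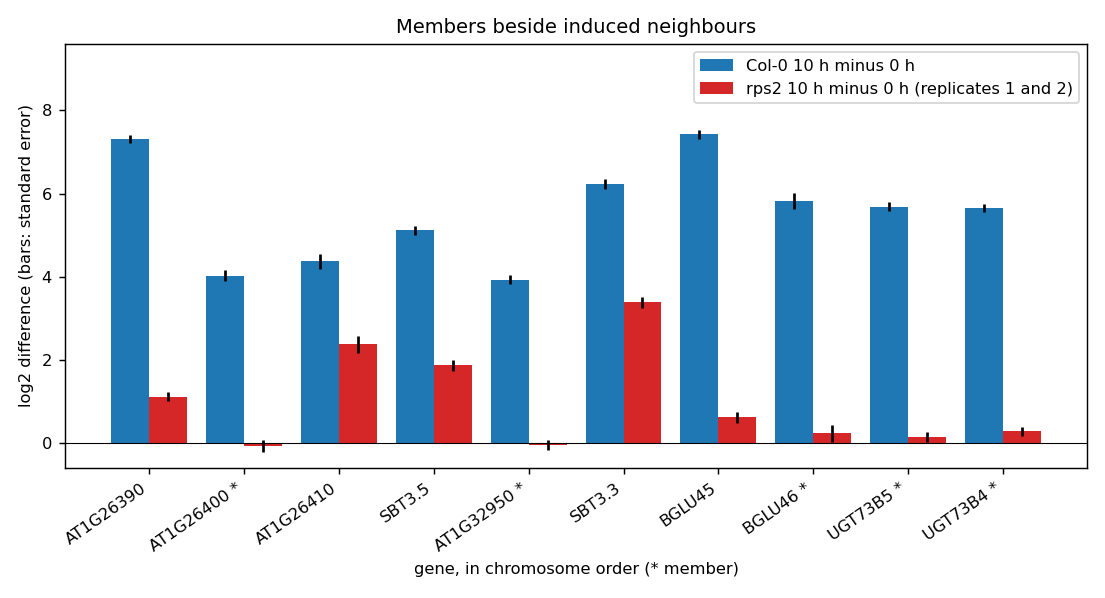
Difference between 10 h and 0 h (log2, y axis, bars: standard error) in Col-0 (blue, 3 arrays per group) and rps2 (red, 2 arrays at 10 h) for 10 genes in chromosome order (x axis), members marked with an asterisk. The members are near 0 in rps2 beside neighbours that reach up to 3.38 there.

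Most measured defence genes that rose in Col-0 rose in rps2 as well, as did most of the 500 genes past the Col-0 conditions. Of 202 genes in 17 lists of defence, stress and cell type genes, 48 had a named probe set and 2, BGLU46 and ATG8B, were members. Past the Col-0 conditions, 17 had an rps2 difference of at least 2, 6 one between 0.5 and 2, and the 2 members one within 0.5. Among all 500 genes past those conditions the numbers were 195, 239 and 59. Without the cell type markers 45 genes were measured and 39 rose in Col-0 at 10 h. Of these 34 also rose in rps2, 1 fell and 4 did not pass, and 32 of the 34 stayed above 0 on the poly-A scale in both genotypes. The 4 were BGLU46, ATG8B, the calcium sensor gene CML23 (3.78 in Col-0 and -0.41 in rps2) and ATG8E (1.65 and -0.24).

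All 5 measured genes of salicylic acid and N-hydroxypipecolic acid rose in both genotypes, as did all 5 of pattern-triggered immunity. UGT76B1, which glucosylates both immune signals, rose by 8.30 ± 0.19 in Col-0 and 7.68 ± 0.21 in rps2, in contrast to the members UGT73B4 and UGT73B5. Of the 9 calcium genes 9 rose in Col-0 and 8 in rps2. WRKY22, a transcription factor gene of early defence, was the one that rose in Col-0 (3.66 ± 0.12) and fell in rps2 (-1.22 ± 0.13). At 0 h it was 1.88 ± 0.12 higher in rps2 than in Col-0.

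Genes lay close on both sides of the limits of the rule. Just inside the 6 h limit of 2 were AT3G49130 (2.03) and AT5G45630 (2.05), and just outside AT1G18740 (1.98) and AT3G25490 (1.93), among 74 genes that failed that condition alone. At the 10 h limit of 2.5, AT5G45630 (2.53) and ATG8B (2.57) were inside and MAMI and AT1G30070 (both 2.49) outside, among 35. Only AT5G51440, at -1.65 from 6 h to 10 h, failed that condition alone. At the rps2 limit AT3G53600 (0.49) and AT2G26390 (0.48) were inside and AT4G28550 (0.51) outside.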

How the data were processed

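Per the submitters' processing notes, the arrays were processed with RMA, which corrects background, quantile-normalises and summarises probes, and its version is not given in the sources used here. The deposited table holds log2 values, and a test of it showed that each of its 22810 probe sets has a median of 0 over the 15 arrays, so no filter on low values was possible. The 64 control probe sets were set aside. Of the other 22746, 13513 had 1 gene in the platform annotation, 503 had several and 8730 had none. All 59 members were found in RefSeq's gene table (TAIR10.1).

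A mean per group was fitted to 14 arrays, without rps2 10 h replicate 3, with limma 3.58.1 in R 4.3.3, and p-values were adjusted by Benjamini-Hochberg over all 22746 probe sets (threshold 0.05, two-sided). The residual and prior degrees of freedom were 9 and 5.55, and the median standard error at 0 h was 0.0976. For the members p-values are given only for rps2 against Col-0 at 0 h. The rule used the same 0 h arrays, so the choice of genes affects these p-values and the share called, by an amount that was not tested. Calls in the other contrasts, which the rule used or favours, are counted as a description beside the share of all probe sets. All p-values named adjusted come from this fit unless 15 arrays are named.

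The members and lists were chosen with earlier results of these data known, and families were defined after the annotation had been read. Named genes were the members with the largest differences at 10 h and at 0 h, those with a symbol, those at the limits of the rule or beside an induced gene, those with the widest spread, and listed genes. Replicate numbers do not pair the samples: deviations from group means correlated by -0.173 to 0.106 between arrays of the same number. The fit was tested on simulated data. Alternatives were other scalings, variance models, the block, thresholds and leaving out arrays. The planned search for promoter motifs was not made, as no sequences were used here.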

Additional observations from a re-analysis of the deposited data

Results flagged for a closer look

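The poly-A spike-ins (24 probe sets) belong to no comparison of the genes. They averaged 0.981 in Col-0 at 10 h, where no array of another group exceeded 0.115. With arrays centred on them, the members' Col-0 10 h differences ran from 1.45 to 6.05, and their rps2 differences from -0.06 to 0.81 with a median of 0.50, so that 31 of the 59 were within 0.5. All 59 remained at 2 or more at 6 h. The cause of the higher spike-in values was not tested.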

How the results depend on the processing

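The number of genes that met the rule was 59. It was 95 with all 15 arrays, 23 after repeated quantile normalisation, 19 with arrays centred on the poly-A spike-ins, 130 with an rps2 limit of 1, 107 with Col-0 limits of 1.5 and 2, and 30 with limits of 2.5 and 3. Of the 23 and the 19, 23 and 16 were among the 59. It was 57 to 65 with each array left out in turn. Quantile normalisation gives every array an equal spread, while the deposited values had SDs of 0.43 and 0.38 on the 2 rps2 10 h arrays and 0.74 to 1.13 on the others. The repeat was run on values already centred per probe set, so it stretches those 2 arrays. It does not show how the choice of normalisation of intensities would change the number. The poly-A centring lowers the Col-0 10 h minus 6 h contrast by 1.11 and raises rps2 against Col-0 at 10 h by more. At 0 h 21 members passed the threshold in the fit of 14 arrays. The number was 20 with the replicate block, 18 to 20 with an array of that comparison left out, 15 to 23 under the other alternatives at the same or a stricter p, and 11 at a difference of at least 1. Over all probe sets 6854 were called (3703 higher in rps2), and 3624 with 15 arrays, 4300 on the poly-A scale (1313 higher), 1229 at a difference of at least 1, 6631 with the replicate block and 5934 to 6152 with an array left out. The members' median of 0.12 became -0.045 on the poly-A scale, which lowers this contrast by 0.16 for every probe set alike. The median was 0.11 to 0.14 with an array left out. The replicate numbers do not pair the samples, so the block says nothing of a weaker effect. Among the 21 named genes 287 alternative values kept their direction and side of the threshold, 28 lost the threshold and 0 reversed. ATG8B lost it in 11, AT3G62260 and AT3G07090 in 7 each, and AT1G23710, AT3G22260 and AT5G16200 on the poly-A scale alone. The cause of these differences was not tested. Centred values give no signal over background, so what dim signals limit was not measured.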
